A study of Mus musculus with 2 samples.

Results

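The mitochondrially encoded genes are the 37 genes whose symbol starts with mt-, out of 43346 mouse genes in the deposited tables. They were taken by symbol alone and comprise 13 mRNAs, 2 rRNAs and 22 tRNAs, all on the mitochondrial chromosome. Poly(A)-selected, rRNA-depleted RNA longer than 200 nt was sequenced as stranded paired reads. It came from livers of the mouse strain C57BL/6J, taken on day 18 of gestation (E18). There was 1 group of 2 libraries, labelled biological replicates 1 and 2, with no treatment, no other genotype and no second tissue or age, so no comparison between conditions can be made. The labels describe both as mixed-sex littermates and give both the same donor number. Spread over these libraries is therefore that of 2 samples of 1 litter label, and no p-value is given.

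Mouse mitochondrial DNA is a small circle that encodes subunits of respiratory chain complexes I, III, IV and V together with the rRNAs and tRNAs needed to translate them. Each strand is copied into long precursors, which are cut at the tRNAs that lie between most of the coding genes. Most mRNAs then receive short poly(A) tails. Several mRNAs lack a full stop codon in the DNA, and the tail completes it. All other subunits, and the whole machinery that copies and matures mitochondrial RNA, come from nuclear genes, and fetal liver combines hepatocytes with a large population of erythroid cells.

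Whole-series values were as follows. Mouse genes held 159127988 expected counts in replicate 1 and 136904873 in replicate 2. Summed TPM of 10 hepatocyte marker genes was 146290 and 149402, and that of 10 erythroid markers 224866 and 218707, all 20 being detected. The labels give pooled sexes, but Xist, the RNA of the inactive X chromosome, had 157187 counts in replicate 1 and 41 in replicate 2, while 4 Y-linked genes together had 8 and 18351. Any difference between the libraries is therefore also one between these Xist and Y-linked profiles, and these cannot be told apart. Of 8 pancreatic acinar genes 6 reached a mean of 1 TPM, and their summed TPM was 67.8 in replicate 1 and 18.8 in replicate 2, with 3 of them at 0 counts in the latter. Cela1 made up most of the second sum, and without it the other 7 summed to 53.5 and 0.74 TPM, with Ctrb1 at 3729 and 19 counts. Of 14 striated muscle genes 5 reached that level, with summed TPM of 29.2 and 26.1. Without Tnnc1, which was higher in replicate 2, the other 13 summed to 21.5 and 11.2 TPM, and Ckm had 353 and 38 counts. Of 4 brown fat genes 1 did, with sums of 3.06 and 3.82 TPM and 5 and 1 counts for the defining gene Ucp1. What part these cells or tissues have in the mitochondrial values was not tested.

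Some of these genes are short or overlap a neighbour, as their sequences show. The shortest annotated mRNA, mt-Atp8, is 204 nt long and shares its last 43 nt with the start of mt-Atp6, at chrM:7927-7969. Each annotated protein-coding gene is called an mRNA here, although overlapping neighbours on the same strand may share a mature transcript. Transcript sequences are those of GENCODE M21 on mm10, the shared bases are in capitals, and the first 60 bases of mt-Atp6 are given for comparison.
mt-Atp8: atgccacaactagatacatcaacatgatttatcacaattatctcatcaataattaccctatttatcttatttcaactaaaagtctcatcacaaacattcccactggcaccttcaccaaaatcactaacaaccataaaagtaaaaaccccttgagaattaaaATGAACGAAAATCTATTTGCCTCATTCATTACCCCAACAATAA
mt-Atp6: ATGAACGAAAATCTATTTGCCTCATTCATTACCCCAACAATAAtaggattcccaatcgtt

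A second overlap joins mt-Nd4l and mt-Nd4 over 7 nt, at chrM:10167-10173. The last 30 bases of the former and the first 30 of the latter are shown with the shared bases in capitals.
mt-Nd4l: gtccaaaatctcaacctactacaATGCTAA
mt-Nd4: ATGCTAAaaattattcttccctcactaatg

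Of the 13 mRNAs, 10 end in a complete stop codon and 3 end in a single T that follows the last whole codon. Those 3 are mt-Co3, mt-Nd4 and mt-Cytb, whose last 30 bases are given below beside those of mt-Co1, which has a whole stop. Capitals mark the stop or the part of it that the DNA encodes.
mt-Co3: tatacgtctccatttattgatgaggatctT
mt-Nd4: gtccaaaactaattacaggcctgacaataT
mt-Cytb: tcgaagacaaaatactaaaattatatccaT
mt-Co1: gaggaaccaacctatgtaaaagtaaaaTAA

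In 9 of the 13 the next annotated gene on the same strand is a tRNA. It lies 6613 nt away for mt-Nd6 and 69 nt away for mt-Co1, and at most 3 nt away for the rest of these. Of the first codons, 9 are ATG, and ATA, ATC, ATT and GTG begin 1 mRNA each. The tRNAs themselves are 59 to 75 nt long, far below the size of the RNA that was sequenced. The shortest and the longest are given whole to show that scale.
mt-Ts2: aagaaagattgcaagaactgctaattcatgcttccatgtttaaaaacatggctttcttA
mt-Tl1: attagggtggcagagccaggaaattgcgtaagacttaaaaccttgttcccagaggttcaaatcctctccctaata
The capital at the end of mt-Ts2 is the base that it shares with mt-Tl2.

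The 37 genes held 2919840 expected counts in replicate 1 and 2304752 in replicate 2. An expected count is the number of fragments that the authors' model assigned to a gene. These were 1.83% of all mouse counts in replicate 1 (95% exact Clopper-Pearson interval 1.833 to 1.837%) and 1.68% in replicate 2 (1.681 to 1.686%), or 1.76% ± 0.107 (SD, n = 2). The libraries differed by more than counting error, which is all that those intervals cover. Nearly all of it was mRNA, with 98.0% and 97.8% of the mitochondrial counts in replicates 1 and 2. Read as TPM, which divides each count by an effective length, the genes made up 8.04% and 5.29% of all mouse TPM. Most of the excess over the share of counts was mt-Atp8, since the other 36 genes made up 2.33% and 2.27%.

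**Figure D1:**
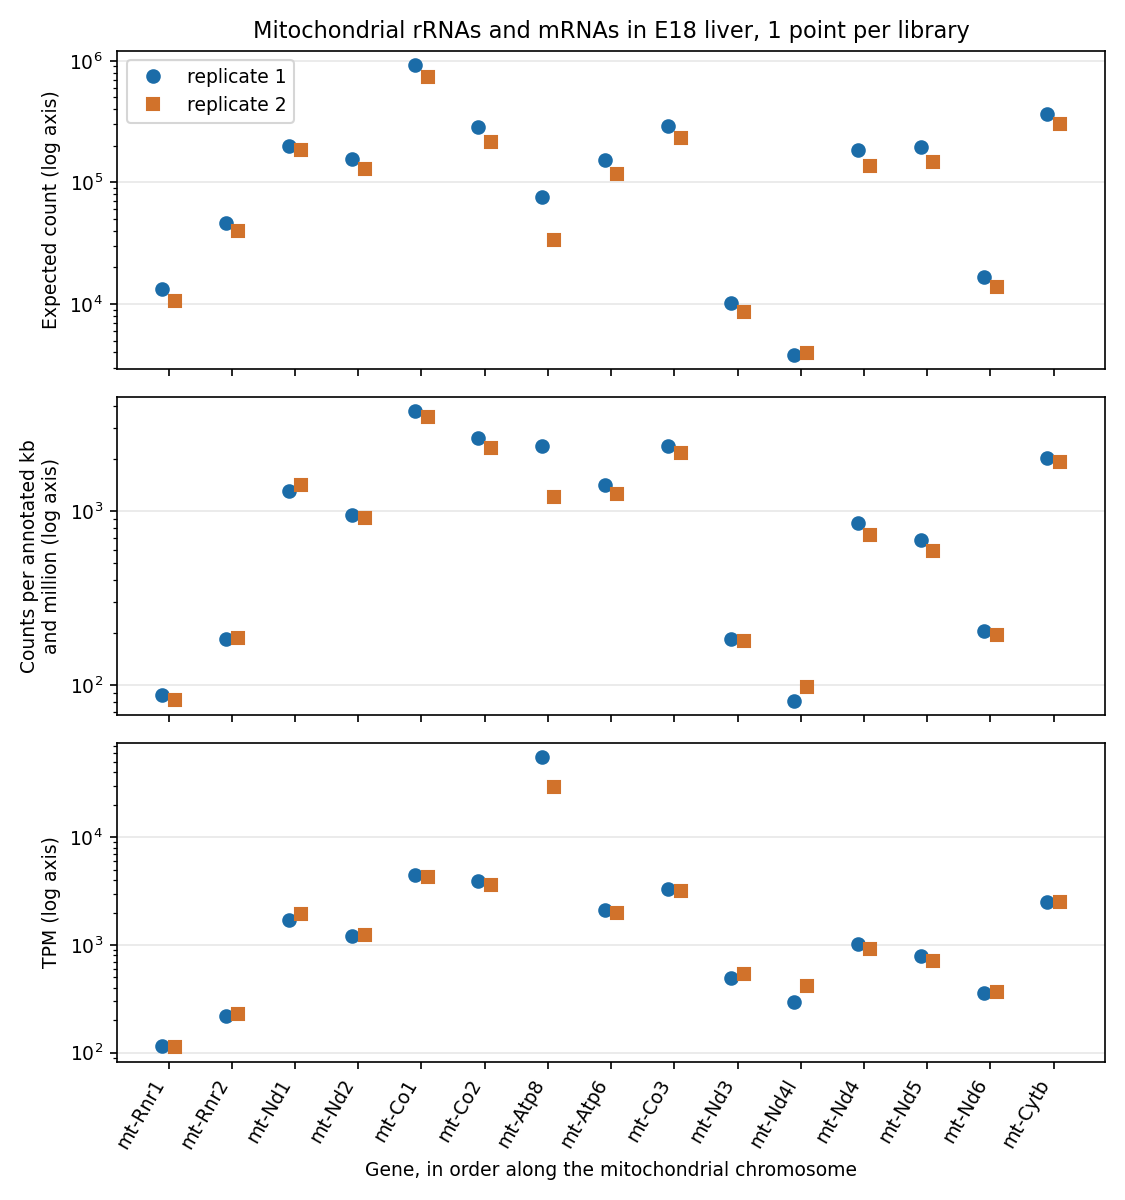
Expected counts, counts per annotated kilobase scaled to the library's mouse total, and TPM (all on log axes) of the 2 rRNAs and 13 mRNAs, with 1 point per library and the genes in order along the chromosome. mt-Atp8 lies among the other mRNAs in the upper and middle panels, and at 55131 and 29384 TPM it lies above all of them in the lower one.

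By counts the complex IV mRNAs were the most abundant group, as they were by TPM once mt-Atp8 of complex V was set aside. mt-Co1 (ENSMUSG00000064351, chrM:5328-6872), the catalytic subunit that reduces oxygen, had 919562 expected counts in replicate 1 and 734215 in replicate 2. It alone held 31.5% and 31.9% of all mitochondrial counts and ranked 16th of all mouse genes by mean count. Its level was 4447 and 4307 TPM, or 4377 ± 98.8 (SD, n = 2).

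mt-Co2 (chrM:7013-7696), which takes electrons from cytochrome c, had 284414 and 214869 counts and 3900 and 3624 TPM. mt-Co3 (chrM:8607-9390), the third mitochondrially encoded core subunit of the complex, had 293630 and 231448 counts and 3319 and 3206 TPM. On the TPM scale the values of these 3 mRNAs did not overlap between neighbours, with mt-Co1 highest and mt-Co3 lowest. Per annotated kilobase, mt-Co2 and mt-Co3 overlapped, at 2613 and 2295 against 2354 and 2156 counts per kilobase, after scaling to equal library totals.

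mt-Cytb (chrM:14145-15288), cytochrome b and the only complex III subunit of this genome, had 366108 and 299666 counts. Its level was 2535 and 2525 TPM, so that the 2 libraries differed less than for most other members, with an SD of 6.87. With mt-Atp8 set aside, it came after the 3 complex IV mRNAs on both length-scaled measures.

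In complex V, mt-Atp6 (chrM:7927-8607), the subunit that forms part of the proton channel of ATP synthase, had 152142 and 117357 counts and 2100 and 1992 TPM. mt-Atp8 (ENSMUSG00000064356, chrM:7766-7969), a small membrane subunit of the same enzyme, had 76318 and 33457 counts. Its TPM of 55131 and 29384 ranked it 4th among all mouse genes, against 242nd by mean count. The authors' effective length for it was 8.90 nt in replicate 1 and 8.82 nt in replicate 2, of an annotated 204 nt. On the scaled counts per annotated kilobase it had 2351 and 1198, which places it just below mt-Co3 at 2354 in replicate 1 and below mt-Atp6 at 1259 in replicate 2. The counts of mt-Atp6 were 1.99 and 3.51 times those of mt-Atp8. As TPM the same ratio was 0.0381 and 0.0678, so which of these neighbours has the larger value depends on the measure.

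Complex I, which takes electrons from NADH, has 7 of its subunits in this genome, and their mRNAs were spread widely. mt-Nd1 (chrM:2751-3707) had 197729 and 183725 counts, with 1714 and 1943 TPM. mt-Nd2 (chrM:3914-4951) had 156614 and 128794 counts, with 1224 and 1227 TPM. mt-Nd4 (chrM:10167-11544) had 185946 and 136803 counts, with 1028 and 919 TPM. All of these are membrane subunits of the complex, and their order by TPM had no overlap between neighbours.

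mt-Nd5 (chrM:11742-13565), the longest mRNA at 1824 nt and likewise a membrane subunit, had 196745 and 147388 counts and 786 and 714 TPM. mt-Nd3 (chrM:9459-9806) had 10229 and 8539 counts and 494 and 536 TPM. mt-Nd4l (chrM:9877-10173) had the fewest counts of any mRNA here, 3820 and 3937, and 299 and 420 TPM. The TPM of mt-Nd4l in both libraries enclosed that of mt-Nd6, so those mRNAs were not ordered on that scale. mt-Nd4l and mt-Nd4 overlap in the genome, yet mt-Nd4 had 48.7 and 34.7 times the counts of mt-Nd4l, and 3.44 and 2.19 times its TPM.

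mt-Nd6 (chrM:13552-14070) is the only mRNA encoded on the minus strand of the reference, which also holds 8 of the 22 tRNAs. It had 16781 and 13830 counts, or 0.575% and 0.600% of the mitochondrial total. Its 355 and 364 TPM were 0.186 and 0.185 times the median of the other 12 mRNAs, mt-Atp8 included. The RNA was poly(A)-selected, and whether mt-Nd6 was retained as well as the other mRNAs was not tested. Against mt-Nd5, which lies opposite it across a 14-nt overlap of the annotations, the ratio of mt-Nd5 to mt-Nd6 was 2.22 and 1.96 on the TPM scale, 3.34 and 3.03 per annotated kilobase and 11.7 and 10.7 in counts. The libraries were labelled stranded, but whether the counting used the strand is not given in the sources used here, so reads from opposite strands in that overlap may not have been kept apart.

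The rRNAs remained countable after poly(A) selection and rRNA depletion. mt-Rnr1 (chrM:70-1024), the small subunit rRNA, had 13364 and 10641 counts, with 116 and 113 TPM. mt-Rnr2 (chrM:1094-2675), that of the large subunit, had 46438 and 40083 counts, with 219 and 229 TPM. Together they made up 2.05% and 2.20% of mitochondrial counts. mt-Rnr2 was 1.88 and 2.03 times mt-Rnr1 by TPM, and both lay below every mitochondrial mRNA in TPM. This order depended on the measure. By counts mt-Rnr2 lay above mt-Nd3, mt-Nd4l and mt-Nd6 in both libraries, and mt-Rnr1 above mt-Nd3 and mt-Nd4l. In scaled counts per annotated kilobase mt-Rnr2, at 184 and 185, overlapped mt-Nd3 at 185 and 179. On that scale mt-Rnr1, at 87.9 and 81.4, overlapped mt-Nd4l at 80.8 and 96.8.

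All 22 tRNAs were listed at 0 counts in both libraries. On the plus strand these are mt-Tf, mt-Tv, mt-Tl1, mt-Ti, mt-Tm, mt-Tw, mt-Td, mt-Tk, mt-Tg, mt-Tr, mt-Th, mt-Ts2, mt-Tl2 and mt-Tt, and on the minus strand mt-Tq, mt-Ta, mt-Tn, mt-Tc, mt-Ty, mt-Ts1, mt-Te and mt-Tp. Their effective length was also 0 in both. Of 5429 mouse genes with an effective length of 0 in both tables, 5396 had no count in either. A count of 0 allows up to 1.89e-06% of mouse counts in replicate 1 and 2.19e-06% in replicate 2, but a gene to which no start position was open was hardly measured, so no level can be given for the tRNAs.

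Part of the mitochondrial signal could not be told apart from nuclear copies of the same sequence. A stretch of nuclear DNA at chr1:24611535-24616197 on mm10, 4663 nt on the minus strand, holds 7 annotated genes that match mitochondrial mRNAs. In an alignment of all GENCODE M21 transcripts, 5 of the 7 were identical to the mitochondrial gene over the whole copy and 2 had 1 mismatch. Gm28661 matched mt-Co2 over 681 nt, Gm10925 mt-Atp6 over 678 nt, Gm28437 mt-Co3 over 783 nt, Gm10222 mt-Nd4l over 294 nt and Gm28439 the first 876 nt of mt-Nd4. Gm29216 matched the last 483 nt of mt-Co1 apart from A1066T, and Gm28438 matched 345 nt of mt-Nd3 apart from T3C. Positions are counted from 1 at the first base of the mitochondrial mRNA, whose base is given first. The windows around these positions are shown with the differing base in capitals, because those are the only bases of the aligned stretches that differ.
mt-Co1: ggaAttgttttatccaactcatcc
Gm29216: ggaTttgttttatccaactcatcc
mt-Nd3: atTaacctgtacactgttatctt
Gm28438: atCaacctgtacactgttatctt

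The deposited counts were divided between each gene and its copy in very different proportions. Summed over the 7 copies, replicate 1 held 861306 counts and replicate 2 held 681589, which is 31.9% ± 0.175 (SD, n = 2) of the counts of the 7 pairs. For mt-Nd3 the copy held 75.1% and 74.3% of the pair, with 30891 and 24661 counts. For mt-Nd4l it held 84.6% and 75.2%, with 21035 and 11969. The nuclear copies thus had more counts than these short mitochondrial mRNAs themselves.

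Gm10925 also exceeded mt-Atp6, with 183870 and 147175 counts and 54.7% and 55.6% of the pair. Gm28661 held 43.1% and 47.1% of the pair with mt-Co2, at 215092 and 191331 counts. Gm28437 held 37.2% and 33.2% of that with mt-Co3, at 173983 and 115112. Gm29216, which covers only the end of mt-Co1, held 20.4% and 20.7%, at 236335 and 191256. By contrast Gm28439 had 99.9 and 84.4 counts, or 0.0537% and 0.0616% of its pair with mt-Nd4, although it too is identical over its whole length.

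**Figure D2:**
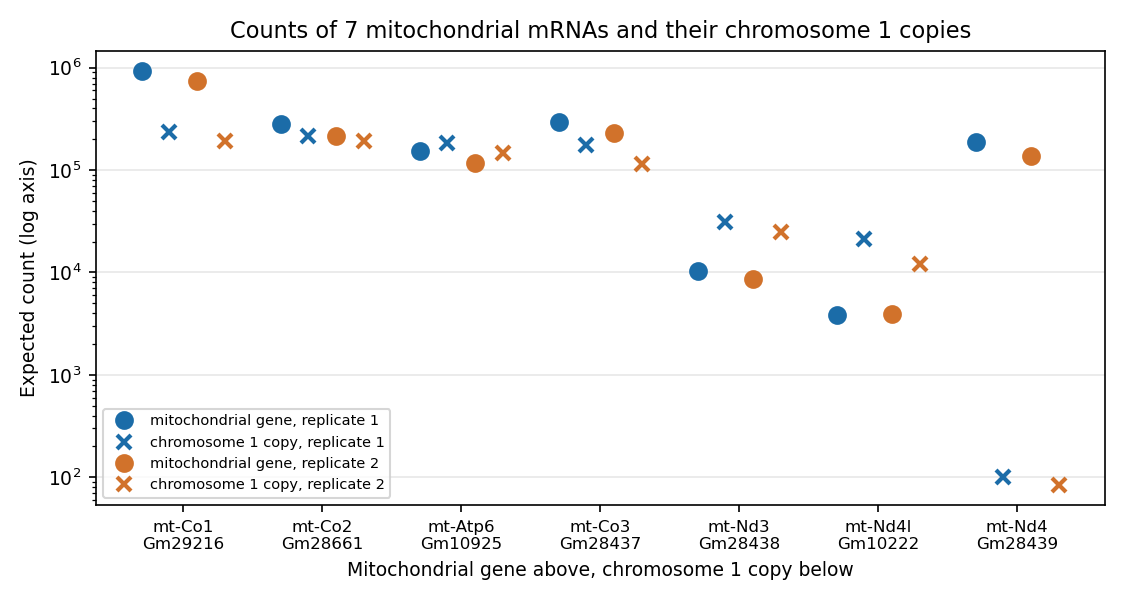
Expected counts (log axis) of 7 mitochondrial mRNAs (circles) and their chromosome 1 copies (crosses) in each library. The crosses lie above the circles for mt-Atp6, mt-Nd3 and mt-Nd4l and at about 100 counts for the copy of mt-Nd4.

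The tables carry a measure of this uncertainty, the standard deviation of a gene's count under the authors' model. In replicate 1 it was 31381 counts for mt-Co2, 29459 for mt-Atp6 and 48028 for mt-Co3, which is 11.0%, 19.4% and 16.4% of their counts. In replicate 2 the shares were 11.5%, 17.6% and 17.3%. It was 5.72% and 7.67% for mt-Nd3 and 8.91% and 8.29% for mt-Nd4l. For mt-Co1 it was 0.0452% and 0.0507%, and it was 0 in both libraries for mt-Rnr1, mt-Rnr2, mt-Nd1, mt-Atp8, mt-Nd5, mt-Nd6 and mt-Cytb, none of which has an annotated copy in the chromosome 1 stretch. The deposited TPM interval of mt-Co3 ran from 2309 to 3948 in replicate 1, far wider than the gap between the libraries.

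Adding each copy's counts to those of its gene changed the order of the mRNAs. On each gene's own effective length, mt-Co2 reached 6850 ± 1.15 TPM (SD, n = 2) and passed mt-Co1 at 5510 ± 114. mt-Co3 reached 5043 ± 343 and mt-Atp6 4564 ± 103, so all 4 lay above mt-Cytb. mt-Nd3 came to 2035 ± 69.7, which is 3.95 times its level alone, and mt-Nd4l to 1820 ± 174, which is 5.27 times. This moved them from 11th and 13th place among the 13 mRNAs to 7th and 9th, where the values of mt-Nd4l overlapped those of mt-Nd1 in the 8th place. mt-Nd6 was then the lowest. This sum was chosen after the values were seen, and how much of each pair is transcribed from the nucleus was not tested. With the copies included, 2.38% and 2.18% of mouse counts matched mitochondrial mRNA, rRNA or these copies.

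More diverged nuclear copies drew few counts. Of 10 other annotated transcripts with at least 90% identity over at least 100 nt, 8 were in the tables. Gm13341, which is 95.9% identical to mt-Co2, had 371 and 319 counts, and Gm13340, 97.6% identical to the whole of mt-Co1, had 23.1 and 9.01. The other 6 had at most 1 count in a library. These copies were named after their values were seen.

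Between the libraries the mitochondrial genes moved little, with mt-Atp8 as the exception. Ratios are log2 of replicate 2 over replicate 1 on counts scaled by edgeR's TMM factors with 0.5 added, for genes with a mean count of at least 50. Of the 37 genes 15 passed that limit, and their median was -0.16, against 0.00 over 14955 mouse genes. The median ratio also varied with gene length. It was -0.07 in 726 genes of 700 to 1000 nt (lower quartile -0.22) and -0.07 in 1754 of 1000 to 1500 nt (-0.20). The median was -0.05 in 257 genes of 500 to 700 nt, -0.03 in 3946 of 1500 to 2500 nt and 0.0006 in 105 of 350 to 500 nt. In 2 genes of 250 to 300 nt and 3 of 300 to 350 nt it was 0.08 and 0.21. In 6932 genes longer than 2500 nt, a range without mitochondrial genes, it was 0.05. What part length has in the mitochondrial ratios was not tested. mt-Atp8 was the only one of the 15 beyond 2-fold, beside 1.82% of all genes tested. Its ratio was -1.02, with a counting interval of -1.04 to -1.01, and so just past the limit. It was -0.97 with library totals, -0.91 as TPM, -0.95 as FPKM and -0.49 with spike-in scaling, each of which is within 2-fold, but those scalings also shift the median of all genes. Relative to that median, a centring chosen after the values were seen, it was -1.02 with library totals and with spike-ins, -1.005 as FPKM and -0.998 as TPM. Library totals and spike-ins repeat the TMM value here by construction, since each scales a whole library by 1 factor. FPKM and TPM also differ only by 1 factor per library, so the gap between their values comes from the 0.5 added to each and from rounding. Only the TPM value was then within 2-fold, so the gene sits at the limit.

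The other 14 lay between -0.28 for mt-Nd4 and 0.21 for mt-Nd4l. In all, 13 of the 15 were below 0, as were 7471 of the 14955 genes tested, but 9 were with TPM and 1 with spike-in scaling. Those scalings move all genes: the median over all genes was 0.09 with TPM and 0.54 with spike-ins. Relative to that median, 13 of the 15 were lower with TMM, DESeq2 size factors, library totals and spike-ins. Each of these scales a whole library by 1 factor, so their agreement was fixed in advance. With TPM and FPKM, which also differ from each other by 1 factor per library, 12 were lower. The genes share an origin in long precursors and are not independent, and Xist and Y-linked levels differ between the same libraries. Erythroid markers had a median of -0.16, with 9 of 10 below 0, and hepatocyte markers one of 0.04, with 3 of 10 below 0. Striated muscle markers had a median of -2.00 over the 8 genes past the count limit, with 5 beyond 2-fold, and pancreatic acinar markers one of -7.42 over 7, with 6 beyond 2-fold. The part of these in the mitochondrial ratios was not tested.

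mt-Nd4l and mt-Nd1 were the only members above 0, at 0.21 and 0.06. For mt-Nd4l this depended on how the pair was divided, since its copy had a ratio of -0.65 and the sum of both one of -0.48. The pair of mt-Co3 stood at -0.27 and that of mt-Co2 at -0.13. With copies added, 14 of 15 were below 0, and mt-Atp8, which has no annotated copy of its own in that stretch, was still the only one beyond 2-fold.

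**Figure D3:**
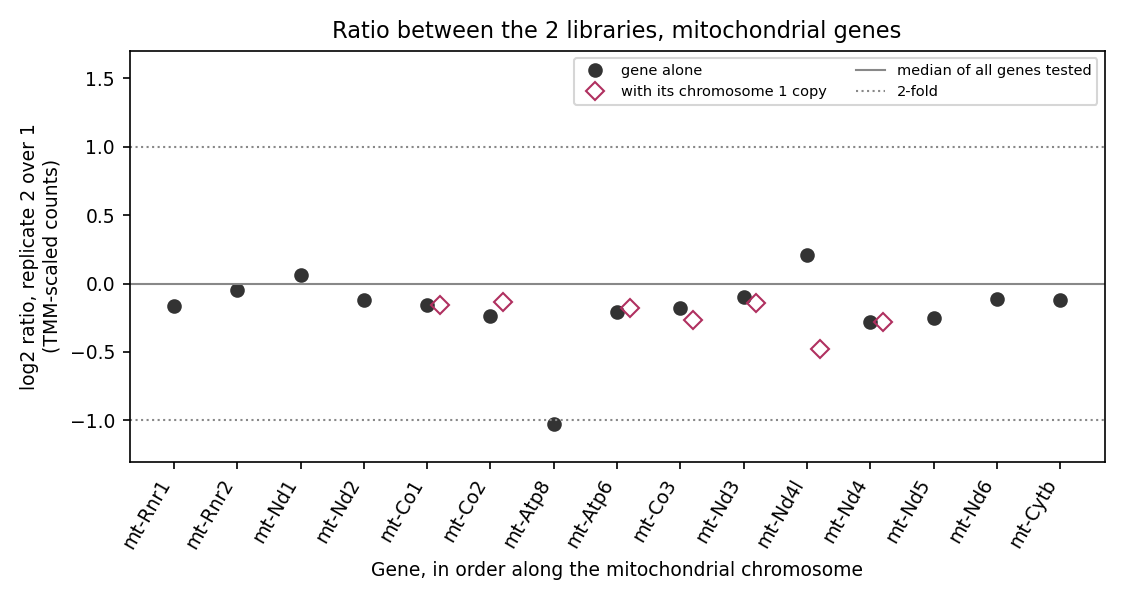
Log2 ratio of replicate 2 over replicate 1 on TMM-scaled counts, for each mitochondrial gene alone (filled circles) and with its chromosome 1 copy (open diamonds). The solid line is the median of all genes tested and dotted lines mark 2-fold; mt-Atp8 at -1.02 is the only gene past them, and mt-Nd4l changes side when its copy is added.

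The deposited effective lengths differed between the libraries. The median gap between length and effective length, over 6190 genes longer than 2000 nt, was 215 nt in replicate 1 and 225 nt in replicate 2, both above the 204 nt of mt-Atp8. Of 5 other genes of up to 250 nt that passed the count limit, 4 were below 0, from Gm15452 at -1.16 to Gm10443 at -0.23, and Gm22988 was at 0.71. These 5 are pseudogenes or a small nucleolar RNA and have at most 360 counts in a library. Whether fragment size has a part in the ratio of mt-Atp8 was not tested.

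The mitochondrial subunits were compared with the nuclear subunits of the same complexes, per length. Of 84 listed nuclear subunits 83 were found, and 80 had a mean of at least 1 TPM, the level called detected here. Their median was 170 TPM in replicate 1 and 179 in replicate 2. For complex I the 36 nuclear subunits had a median of 102 ± 2.32 TPM (SD, n = 2) and the 7 mitochondrial ones 750 ± 51.4, which is 7.36 ± 0.671 times as high. With the chromosome 1 copies added the mitochondrial median was 12.2 and 11.8 times the nuclear one. By mean TPM a single nuclear subunit, Ndufa6 at 487 and 444 TPM, lay above the lowest mitochondrial one, mt-Nd4l, and Ndufa3 came next among nuclear subunits at 245 and 243. This depends on the measure. In scaled counts per annotated kilobase mt-Nd4l was at 80.8 and 96.8, below the median of 104 over the nuclear subunits of all complexes.

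For complex III the median of 9 nuclear subunits was 210 ± 16.2 TPM, led by Uqcr11 at 778 and 685 and Uqcr10 at 743 and 766. mt-Cytb was 12.1 ± 0.967 times that median. For complex IV the median of 16 was 314 ± 12.1 TPM, with Cox6a1 at 905 and 1018 and Cox4i1 at 599 and 657. The median of the 3 mitochondrial subunits was 12.8 and 11.2 times as high in replicates 1 and 2, and 18.3 and 16.8 times with the copies added. The 3 nuclear subunits below 1 TPM were all of complex IV, and included Cox6a2 and Cox8b, which are known as the isoforms of heart and muscle.

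For complex V the median of 18 nuclear subunits was 262 ± 9.29 TPM, with Atp5b, the catalytic beta subunit, at 1158 and 1121 and Atp5a1, the alpha subunit, at 620 and 797. mt-Atp6 was 7.82 ± 0.567 times that median, and 18.2 and 16.7 times with its copy added. Complex II has no mitochondrial subunit, and its 4 nuclear ones had a median of 138 ± 5.60 TPM, with Sdhd at 223 and 245 and Sdhc at 161 and 174. In complexes III, IV and V no nuclear subunit reached the lowest mitochondrial one. These are ratios of RNA levels in bulk tissue, in which the number of cells and the RNA per cell cannot be told apart.

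**Figure D4:**
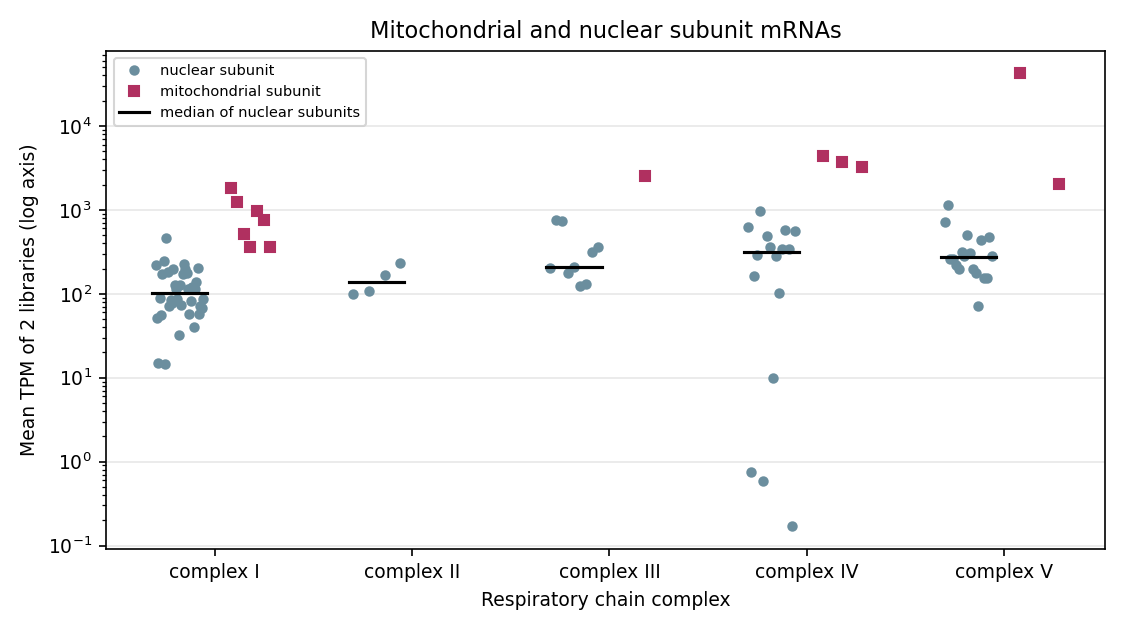
Mean TPM over the 2 libraries (log axis) of each nuclear subunit (circles, with their median as a line) and each mitochondrial subunit (squares) by respiratory chain complex; sideways offsets only separate the points. All mitochondrial subunits of complexes III, IV and V lie above every nuclear one, and the highest square is mt-Atp8.

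Nuclear subunits hardly differed between the libraries. Their median log2 ratio was -0.04, from -0.72 to 0.21 among the 81 past the count limit, with 61 below 0 and 0 beyond 2-fold, beside 1.82% of all genes. As TPM the median was 0.09, beside 0.09 for all genes.

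The machinery that makes and processes mitochondrial RNA was detected throughout, at a much lower level than its products. All 48 listed genes had a mean of at least 1 TPM, with a median of 8.61 and 9.21 TPM. Polrmt, the mitochondrial RNA polymerase, was at 11.6 and 15.8 TPM. Tfam, which packages the DNA and helps start its transcription, was at 9.90 and 9.99, and Tfb2m, the other initiation factor, at 7.05 and 6.80.

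Lrpprc and Slirp form a complex that stabilises mitochondrial mRNAs. They stood at 22.9 and 30.3 TPM and at 28.6 and 29.9 TPM. Mtpap, the poly(A) polymerase of the organelle, was at 4.53 and 5.15, and Elac2, which cuts precursors at the 3′ end of tRNAs, at 7.07 and 7.82. The highest of the list was Hsd17b10, a subunit of the enzyme that cuts tRNA 5′ ends, at 81.0 and 81.8. The lowest was Mterf1b, of the transcription termination factor family, at 1.07 and 1.23. The list's median log2 ratio was -0.00, with 25 below 0 and 23 above, and none of the 48 was beyond 2-fold, beside 1.82% of all genes.

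The older mm9 tables gave another picture of the same chromosome. All 37 genes were listed at an RPKM of 0 for both replicates in the gene, exon and transcript tables, which spell the chromosome chrMT. The contig list, which spells it chrM, had 7 contigs there, so the zeros do not show that reads were lacking. Start, end and strand of all 37 genes were the same in the mm9 table and in GENCODE M21. The contig levels are the authors' values over both libraries, and their scale is not stated in what was used here.

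On the plus strand a contig at chrM:22-6943 with a level of 1040, the 18th highest of 677743, held both rRNAs, mt-Nd1, mt-Nd2 and mt-Co1. Another at chrM:9470-16299 with a level of 662 held mt-Nd4l, mt-Nd4, mt-Nd5 and mt-Cytb and all but the start of mt-Nd3. Between them lay a contig at chrM:7022-7660 within mt-Co2, at 0.314, and one at chrM:7771-9391 over most of mt-Atp8, mt-Atp6 and mt-Co3, at 0.403. The low stretch thus held the mRNAs that the mm10 tables place among the highest. mt-Co2, mt-Atp6 and mt-Co3 are identical to the chromosome 1 copies. mt-Atp8 has no annotated copy of its own there, but the 43 nt that it shares with mt-Atp6 are also in Gm10925. The rest of mt-Atp8 lies between mt-Co2 and mt-Atp6, and the unannotated sequence between the copies of those genes was not aligned. The contig at 662 held mt-Nd4l, identical to its copy over 294 nt, and mt-Nd4, identical to its copy over the first 876 nt. It also held most of mt-Nd3, which has 1 mismatch to its copy over 345 nt. The contig at 1040 held the last 483 nt of mt-Co1, also with 1 mismatch. These are parts of contigs of 6830 and 6922 nt, and no level is given for them alone. Of the copies, Gm10222 was in the mm9 gene table, with RPKM of 103 and 136, and lay in a contig of level 0.659. What part the copies have in the low stretch was not tested.

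On the minus strand the longest contig, chrM:10652-16299, had a level of 82.2. It held mt-Nd6, at 519 nt a small part of its 5648 nt, and ran opposite the whole of mt-Nd5 and mt-Cytb. Other minus-strand contigs were short, at chrM:9635-9996 with 0.285 and at chrM:8425-8572 with 0.018. The plus-strand contig at chrM:9470-16299, which spans the longest minus-strand contig, had the higher level, at 662. Each level covers a whole contig, so it gives no value for mt-Nd6 itself.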

How the data were processed

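Expected counts, TPM, FPKM, lengths and posterior standard deviations per gene were taken from 2 deposited mm10 tables, 1 per library; the sources used here name no aligner, counter or annotation release of the authors. TPM and FPKM are the authors' counts per effective length, scaled to a fixed total, per the file headers. Of 43346 mouse identifiers 42462 were matched to GENCODE M21. Spike-ins, 2.79% and 2.01% of expected counts, and phiX stayed out of mouse totals. The deposited mm9 RPKM values, contig signal, contig score (a fraction) and junction read counts cover both libraries together, per the notes deposited with them.

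Counts were rounded for ratios and scaled with TMM (edgeR 4.0.16; R 4.3.3), with DESeq2 1.42.0 size factors, library totals, TPM, FPKM and spike-ins as alternatives, as were other filters, added counts and leaving out each library. Columns were joined and shares computed with pandas 2.3.3 and SciPy 1.17.1. The ratio step was tested on simulated data. Transcripts were aligned with BLAST 2.17.0. With 1 group of 2 libraries no test was made; intervals cover counting error only.

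The members and lists were chosen with earlier results of these data known. Named were all mitochondrial mRNAs and rRNAs, all tRNAs at 0, the 2 highest nuclear subunits of each complex, 7 machinery genes with the highest and lowest, and each chromosome 1 copy with a mean count of at least 10. Other named genes were chosen after their values were seen.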

Additional observations from a re-analysis of the deposited data

Results flagged for a closer look

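Junction reads on the mitochondrial chromosome, whose genes have no annotated introns, were not used in the comparisons above. The junction list on mm9 held 1864 junctions there, 0.173% of 1077149, with 5596 reads in both libraries together, and 1138 of them had 1 read. The most-read one, at chrM:6458-6518 within mt-Co1, had 716 reads, 400 listed for the first library and 316 for the second, which is above the 3 reads that a count of 0 allows. Next came chrM:6451-6517, also in mt-Co1, with 309 reads and chrM:14428-14538 in mt-Cytb with 215. Of the 1864, 1260 lay within 1 gene, led by mt-Co1 with 1908 reads and mt-Cytb with 749, and 238 were read in both libraries. The cause was not tested.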

How the results depend on the processing

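The mitochondrial share of 1.76% ranged from 1.68 to 1.83% without each replicate, was 6.66% as TPM and as FPKM, 2.28% with the copies added and 2.30% as TPM without mt-Atp8. The median mRNA level of 1829 TPM was 1248 as scaled counts per annotated kilobase, 1527 TPM without mt-Atp8 and 2035 TPM with the copies added. The median log2 ratio of -0.16 was -0.11 with library totals, -0.041 as TPM, -0.082 as FPKM, 0.38 with spike-ins, 0.00 with no filter (which adds 22 tRNAs at 0), -0.14 for mRNAs without mt-Atp8 and -0.13 for TPM centred on all genes. The number of genes beyond 2-fold fell from 1 to 0 under all of these but the absent filter. Without mt-Atp8 this was fixed in advance, since no other gene was beyond 2-fold. With spike-ins centred on all genes the median was -0.16 and the number 1, as in the main values. That was fixed in advance, since both scale a whole library by 1 factor. The count ratio of mt-Rnr2 to mt-Rnr1 was 3.62, 1.95 as TPM and 2.19 per annotated kilobase. That of mt-Atp6 to mt-Atp8 was 2.75, 0.0529 as TPM, 0.824 per kilobase and 6.15 with the copies. That of mt-Nd4 to mt-Nd4l was 41.7, 2.82 as TPM, 8.99 per kilobase and 8.05 with the copies. The nuclear subunits' median of 174 TPM was 163 FPKM or 104 scaled counts per kilobase, and their log2 ratio was 0.086 as TPM. That of the RNA machinery was 0.11 as TPM. The copies' share of 31.9% of the pairs was 51.2% as TPM. The contigs on the chromosome numbered 6 with a score of at most 0.1. DESeq2 size factors and larger added counts moved no member's ratio by more than its counting error. Sums with the copies, TPM without mt-Atp8 and the centred ratios were chosen after seeing the data. No paired analysis was possible because there is 1 group. With 2 libraries the SDs are themselves imprecise, and depth was not the limit for the 15 counted genes.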
